A study of Narcissus tazetta subsp. chinensis with 8 samples.

Results

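The 3 genes described here were annotated, by their best database hits, as enzymes of the lignin and flavonoid branches of phenylpropanoid metabolism in narcissus flowers: a cinnamyl alcohol dehydrogenase (CAD, c103687.graph_c0), a caffeoylshikimate esterase (CSE, c100508.graph_c0) and a chalcone-flavonone isomerase 3 (CHI3, c94522.graph_c0). They were picked by their identifiers from 81096 assembled genes listed in either of the authors' tables, and all 3 were listed in both. They were chosen with their day 7 against day 1 differences known, so those differences are given below as a description with no test. The plant was Narcissus tazetta subsp. chinensis, cultivar Jinzhanyintai, a Chinese narcissus grown on a plantation with no treatment. The 4 groups were corolla on day 7 (full bloom), corolla on day 1 (early flowering), petal on day 7 and petal on day 1, with 2 libraries each. The labels call these biological repeats without giving the flowers or plants behind each, and without defining corolla against petal. The p-values below measure only the spread between such repeats. Levels are FPKM, fragment numbers divided by transcript length and by the library's mapped total, so they can be compared between genes, and a mean FPKM is given ± the SD of the 2 libraries.

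In plants generally, the phenylpropanoid pathway begins when phenylalanine ammonia-lyase removes ammonia from phenylalanine, and 4-coumarate-CoA ligase then makes p-coumaroyl-CoA, from which both branches start. On the lignin side, hydroxycinnamoyltransferase makes shikimate esters, CSE (a role known from Arabidopsis) frees caffeate from caffeoylshikimate, cinnamoyl-CoA reductase makes aldehydes, and CAD reduces these aldehydes to the alcohols that laccases and peroxidases join into lignin. On the flavonoid side, chalcone synthase makes a chalcone, chalcone isomerase closes it to a flavanone, and hydroxylases, synthases and glycosyltransferases then give flavonols and other pigments or protectants of petals. In Arabidopsis the protein named chalcone-flavonone isomerase 3 is an isomerase-like protein without isomerase activity of its own that assists chalcone synthase.

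The names rest on best database hits. CAD had the Swiss-Prot hit to a probable cinnamyl alcohol dehydrogenase of ryegrass. The domains listed for it were those of a zinc-binding alcohol dehydrogenase together with a peroxidase, so the assembled gene may hold sequence of more than 1 protein, and its reads cannot be divided here. CSE had the Arabidopsis esterase as its Swiss-Prot hit, but its best Nr hit was a monoglyceride lipase of common bean, an enzyme of lipid breakdown in the same fold family. CHI3 had an Nr hit to a chalcone isomerase 2 of this narcissus itself. Read counting could also split reads between close copies, and 2 other genes carried the CSE description (c98120.graph_c0 and c104216.graph_c0).

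All 3 genes were strongly expressed. Among the 23336 to 29601 genes with at least 1 FPKM in a library, CHI3 ranked between 253 and 1924 from the top, CAD between 382 and 3145, and CSE between 883 and 3344. Counts of reads behind the FPKM, deposited only for genes the authors called in a tissue, were 1111 to 9081 for CAD and 602 to 3614 for CSE over the 8 libraries, and 854 to 6844 for CHI3 over the 4 corolla libraries.

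CAD, named for making lignin alcohols, had 41.05 and 43.71 FPKM in corolla on day 7, against 292 and 251 FPKM on day 1. In petal it had 44.27 and 57.12 FPKM on day 7, against 297 and 208 FPKM on day 1. All 4 day 7 libraries lay below all 4 day 1 libraries. The tissues overlapped on day 1, and on day 7 the higher corolla library was just under the lower petal library. For the levels of the 3 enzymes, such separation of libraries is only described, here and below. Its share over all genes was not counted. The day 7 mean was 15.6% of the day 1 mean in corolla and 20.1% in petal. As log2(FPKM + 1), the difference of day 7 from day 1 was -2.65 ± 0.10 (SE) in corolla and -2.28 ± 0.23 (SE) in petal.

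CSE, named for freeing caffeate, had 38.77 and 35.01 FPKM in corolla on day 7, against 90.62 and 88.31 FPKM on day 1. In petal it had 43.68 and 51.81 FPKM on day 7, against 150 and 142 FPKM on day 1. The 4 groups did not overlap at any neighbouring step: petal on day 1 was highest, then corolla on day 1, petal on day 7 and corolla on day 7. The day 7 mean was 41.2% of the day 1 mean in corolla and 32.7% in petal, and the log2(FPKM + 1) differences were -1.26 ± 0.09 and -1.60 ± 0.14 (SE).

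CHI3, of the chalcone isomerase family, had 76.22 and 73.68 FPKM in corolla on day 7, against 431 and 407 FPKM on day 1. In petal it had 65.96 and 83.38 FPKM on day 7, against 151 and 135 FPKM on day 1. Corolla on day 1 stood apart from every other group, petal on day 1 came next, and the day 7 libraries of the tissues overlapped. The day 7 mean was 17.9% of the day 1 mean in corolla and 52.3% in petal. The log2(FPKM + 1) difference was -2.47 ± 0.08 (SE) in corolla and -0.93 ± 0.17 (SE) in petal, a gap of -1.53 between the tissues that was not tested, because it is built from the differences the gene was chosen with.

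**Figure D1:**
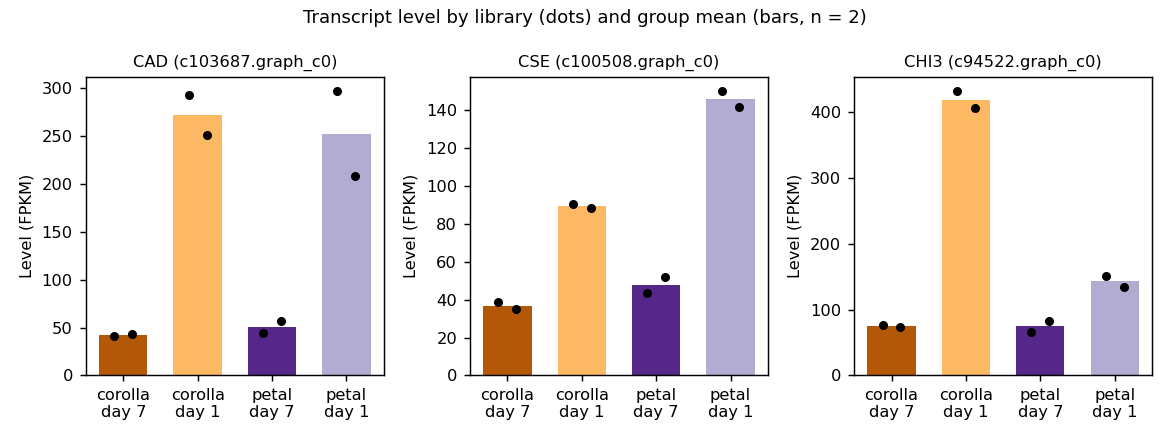
Level in FPKM (vertical axes, from 0) of CAD, CSE and CHI3 in the 4 groups; dots are the 2 libraries of a group and bars their mean. All day 7 libraries lie between 35.01 and 83.38 FPKM for the 3 genes, whereas day 1 libraries run from 88.31 to 431 FPKM.

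Across the 3 genes, day 7 levels lay between 35.01 and 83.38 FPKM in both tissues, and day 1 levels between 88.31 and 431 FPKM. Within corolla the highest of the 3 values in a group was 2.18 times the lowest on day 7 and 4.89 times on day 1, and within petal 1.91 times on day 7 and 2.20 times on day 1. All 3 genes were lower on day 7 in both tissues, given without a test because they were chosen with these differences known. Of 22407 genes tested between the days in corolla, 21.5% passed limma's FDR of 0.05 (6.52% higher and 15.0% lower on day 7). Of 23433 in petal 10.2% passed (4.12% higher and 6.05% lower). The authors' deposited table called all 3 lower in corolla, and CAD and CSE, but not CHI3 (log2 fold change -0.94), lower in petal.

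Ratios between the genes within a library do not depend on that library's depth. CHI3 over CAD was 1.86 and 1.69 in corolla on day 7, 1.48 and 1.62 in corolla on day 1, 1.49 and 1.46 in petal on day 7, and 0.510 and 0.646 in petal on day 1. Petal on day 1 was thus the group in which the CHI3 level was below that of CAD in both libraries. CSE over CAD was 0.944 and 0.801 in corolla on day 7 and 0.987 and 0.907 in petal on day 7. On day 1 it was 0.310 and 0.351 in corolla and 0.506 and 0.681 in petal, so the levels of both lignin genes lay closer together on day 7 in either tissue.

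Corolla was compared with petal on each day, a contrast other than the day differences the genes were chosen with, although it uses the same libraries. On day 7 none of the 3 passed, against 10.3% of the 26460 genes tested, 4.06% higher and 6.24% lower. After TMM scaling, 1757 genes were higher and 1465 lower in corolla on day 7, where 1074 were higher and 1652 lower on the deposited FPKM, and none of the 3 enzymes changed its call. The CHI3 level was 74.95 ± 1.80 FPKM in corolla and 74.7 ± 12.3 FPKM in petal, a log2(FPKM + 1) difference of 0.01 ± 0.14 (SE) with a 95% interval of -0.30 to 0.33 (limma adjusted p = 0.97). For CAD, at 42.4 ± 1.88 FPKM in corolla and 50.7 ± 9.09 FPKM in petal, the day 7 difference was -0.24 ± 0.19 (SE), with an interval of -0.68 to 0.20 (limma adjusted p = 0.495). For CSE, at 36.9 ± 2.66 FPKM in corolla and 47.7 ± 5.75 FPKM in petal, it was -0.36 ± 0.12 (SE). The interval before adjustment over all genes was -0.65 to -0.07, and CSE did not pass (limma adjusted p = 0.113). Without petal day 7 repeat 1 the CSE difference was -0.48 and passed (limma adjusted p = 0.0489). In each fit with a library left out, the lone library of its group is assumed to vary like those of the other groups.

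On day 1 CHI3 was higher in corolla, at 419 ± 17.6 FPKM against 143 ± 11.7 FPKM in petal (SD, n = 2 each). The log2(FPKM + 1) difference was 1.55 ± 0.14 (SE), with a 95% interval of 1.23 to 1.86 and a limma adjusted p of 0.000242. CHI3 was described through the authors' day call in corolla alone, so this test reuses the corolla day 1 libraries behind its choice. Green tissue genes, such as those of photosystems, went in the same direction as CHI3. Of 31 tested, 26 were higher and 1 lower in corolla on day 1 (6.11% and 7.80% of all genes tested). The 32 described summed to 5490 to 5719 FPKM in corolla and 1561 to 1566 FPKM in petal. All 32 were described through the authors' day call in corolla, so their choice rests partly on these corolla day 1 libraries. The part of green tissue in the CHI3 difference was not tested. In whole organs fewer cells of a type cannot be told apart from less RNA per cell. On day 1 CSE was lower in corolla, at 89.5 ± 1.63 FPKM against 146 ± 5.78 FPKM in petal (SD, n = 2 each). Its difference was -0.70 ± 0.12 (SE), with an interval of -0.99 to -0.41 and a limma adjusted p of 0.00751. This call for CSE did not last when any of the 4 day 1 libraries was left out, with limma adjusted p of 0.0598 without corolla repeat 1, 0.0704 without corolla repeat 2, 0.0743 without petal repeat 1 and 0.0505 without petal repeat 2. CAD averaged 272 ± 28.8 FPKM in corolla and 252 ± 62.4 FPKM in petal on day 1 (SD, n = 2 each). It did not pass (difference 0.12 ± 0.19 SE, limma adjusted p = 0.755), and the interval from -0.32 to 0.57 leaves room for a modest difference either way. Thus 1 of the 3 genes was called higher and 1 lower in corolla on day 1, where 6.11% and 7.80% of the genes tested were, 13.9% in all. TMM scaling turned this balance over all genes to 2261 higher and 1987 lower, against 1617 higher and 2063 lower on the deposited FPKM, and left the calls of the 3 enzymes as they were. Whether day 7 and day 1 differ in these tissue differences was not tested, since that is the same quantity as the gap between the day differences.

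**Figure D2:**
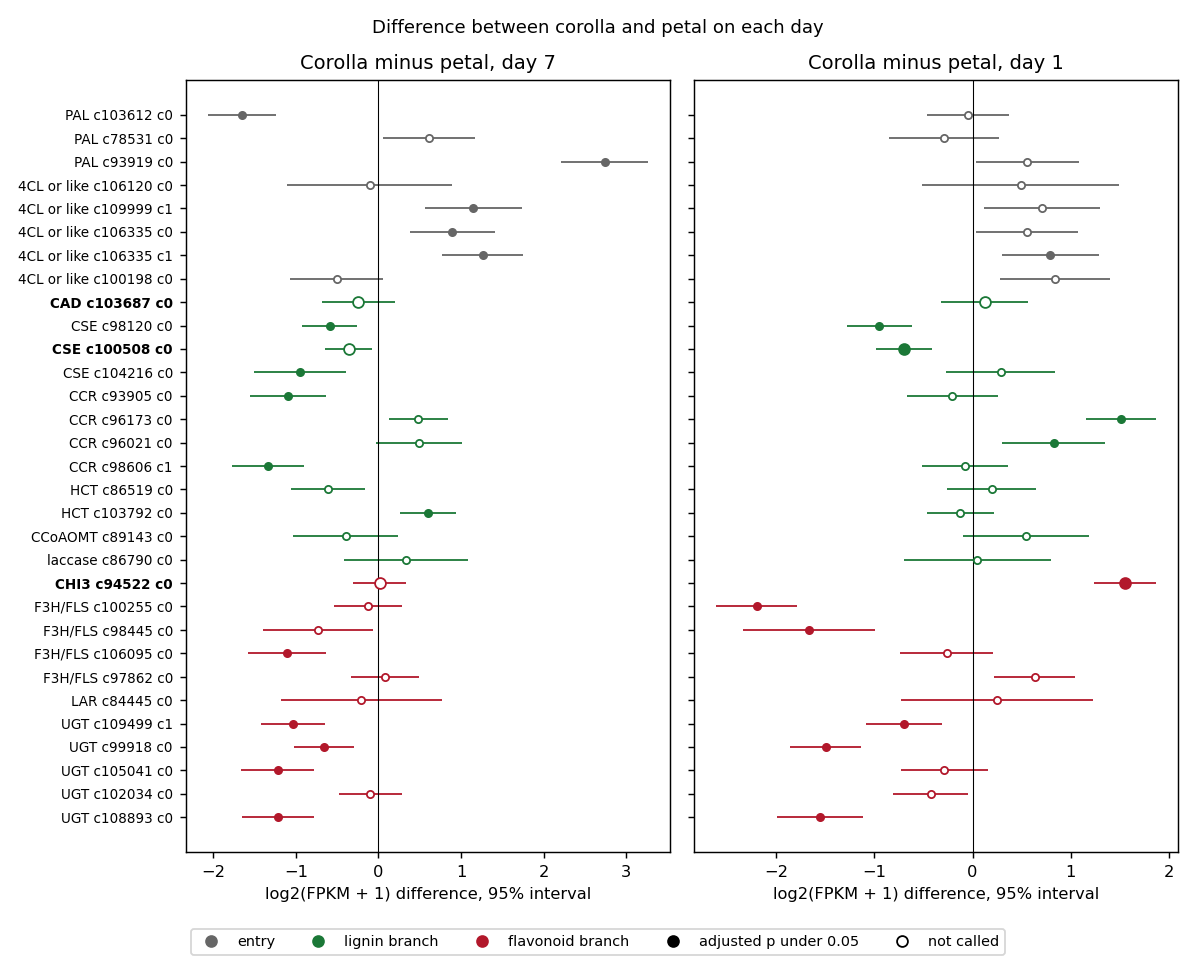
Corolla minus petal as log2(FPKM + 1) (horizontal axes; points with 95% intervals from limma) for the genes of the entry, lignin and flavonoid lists on day 7 and day 1; filled points have an adjusted p under 0.05 and bold names are CAD, CSE and CHI3. CHI3 lies at 0.01 on day 7 and at 1.55 on day 1, and CSE at -0.36 and -0.70.

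The ratio of deposited counts to FPKM, divided by the library's depth, follows the mean length of the transcripts to which a gene's reads were assigned. Depth was taken from 248 genes with at least 100 counts in every library. For CSE this ratio was 23.2 to 23.3 in all 8 libraries, and for CHI3 it was 15.7 to 15.9 in the 4 corolla libraries. For CAD it was 36.2 and 34.5 in corolla on day 7, against 29.6 and 29.9 in corolla on day 1. In petal CAD had 38.2 and 39.1 on day 7, against 29.7 and 30.1 on day 1. The day 7 libraries of both tissues were thus above all day 1 libraries, by a factor of 1.24 in the mean. Of the 248 genes, 24 (9.68%) had all 4 day 7 values above all 4 day 1 values, and 4 (1.61%), CAD among them, had a ratio of means at least as high. This pattern was chosen after its values were seen and has no test.

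For CAD the size of the day difference therefore depends on whether counts or FPKM are used. By depth-adjusted counts the day 1 mean was 5.40 times the day 7 mean in corolla and 3.84 times in petal, where FPKM gave 6.41 and 4.98 times. For CSE the factor was 2.42 in corolla by counts and 2.43 by FPKM, and 3.07 and 3.06 in petal. For CHI3 in corolla it was 5.64 by counts and 5.59 by FPKM.

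**Figure D3:**
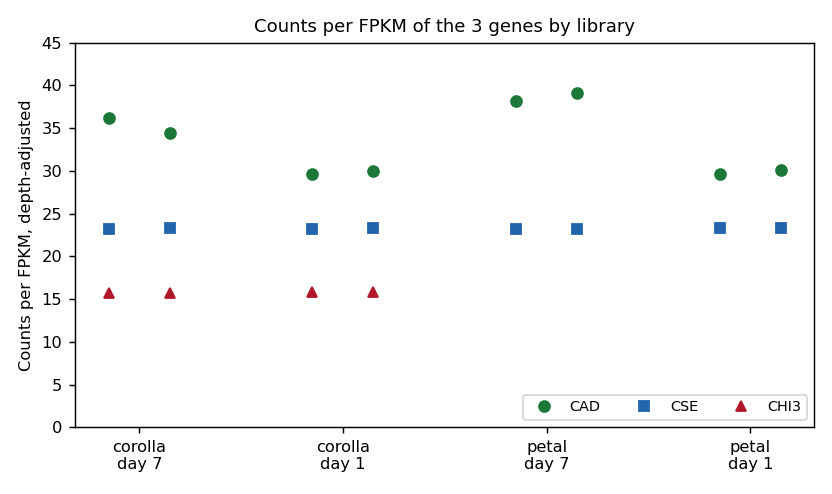
Deposited counts divided by FPKM and by relative depth (vertical axis, from 0) for CAD, CSE and CHI3, 1 point a library in each of the 4 groups; CHI3 has counts for corolla alone. CAD lies at 34.5 to 39.1 on day 7 and at 29.6 to 30.1 on day 1, while CSE stays at 23.2 to 23.3.

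The other genes of the pathway were taken by description, in lists of 12 genes for the lignin branch, 11 for the flavonoid branch and 8 for the entry steps. Descriptions were deposited only for genes that the authors called in corolla or petal, so a day difference of these genes in the tissue of the call is not independent of the list, and no gene described as chalcone synthase was among them.

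In the lignin branch, 7 of the 10 genes other than CAD and CSE fell by day 7 in corolla and 1 rose, and 4 fell and 3 rose in petal, where 15.0% and 6.52% of all genes tested in corolla, and 6.05% and 4.12% in petal, did so. The median log2(FPKM + 1) difference of these 10 genes was -1.29 in corolla and -0.73 in petal, beside -0.06 and -0.05 over all genes tested. With either day 1 library of corolla left out, or with either day 1 library or day 7 repeat 1 of petal left out, 0 genes of any list passed in that tissue, since limma then called 0 of all genes tested (5139 and 5551 in corolla, and 3186, 3594 and 6603 in petal, at an unadjusted p under 0.05). With the filter on low FPKM reapplied to the libraries left, an alternative chosen after seeing the data, limma called 921 and 1464 genes in corolla and 251, 461 and 2479 in petal in these fits. Of the 28 list genes other than the 3 enzymes, 17 fell and 8 rose in corolla with all libraries. With the filter reapplied, 9 fell and 5 rose without day 1 repeat 1, and 11 fell and 5 rose without day 1 repeat 2. In petal 13 fell and 8 rose with all libraries and also without day 7 repeat 1, against 2 and 0 without day 1 repeat 1, and 6 and 2 without day 1 repeat 2. Genes that shared an Nr description moved in opposite directions. Gene c93905.graph_c0 was described as a cinnamoyl-CoA reductase in Nr but not in Swiss-Prot. It fell to 33.6 ± 5.56 FPKM in corolla on day 7, against 252 ± 35.3 FPKM on day 1. In petal it fell to 73.2 ± 16.1 against 291 ± 48.7 FPKM. In contrast, c98606.graph_c1, with a cinnamoyl-CoA reductase in Nr and a reductase of pollen wall synthesis in Swiss-Prot as its hits, rose in petal to 52.9 ± 1.61 FPKM, against 14.9 ± 3.98 FPKM.

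Neither of the other genes with the CSE description fell in either tissue. Gene c98120.graph_c0 rose in corolla to 44.17 and 34.73 FPKM on day 7, against 17.73 and 19.83 FPKM on day 1. In petal it rose to 62.48 and 56.72 FPKM on day 7, against 37.68 and 36.45 FPKM on day 1. It shared with c100508.graph_c0 the lower level in corolla, with a difference from petal of -0.59 ± 0.15 (SE) on day 7 (limma adjusted p = 0.0389) and -0.95 ± 0.15 (SE) on day 1 (limma adjusted p = 0.00378). The day 7 call lasted only when corolla day 7 repeat 1 was the library left out, with limma adjusted p of 0.0564 to 0.205 when any other library was left out. The weakly expressed c104216.graph_c0, which rose in petal, had 1.99 ± 0.361 FPKM in corolla and 4.75 ± 0.431 FPKM in petal on day 7.

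The tissues also differed in other lignin genes. On day 7 c93905.graph_c0, the cinnamoyl-CoA reductase by its Nr hit, was lower in corolla, at 33.6 ± 5.56 FPKM against 73.2 ± 16.1 FPKM (difference -1.09 ± 0.20 SE, limma adjusted p = 0.0127). That call was lost without corolla day 7 repeat 1 or petal day 7 repeat 2. On day 1 another reductase gene, c96173.graph_c0 was higher in corolla, at 165 ± 3.26 FPKM against 57.9 ± 12.98 FPKM in petal (difference 1.51 ± 0.16 SE, limma adjusted p = 0.000531), near the size seen for CHI3. In all, 1 of the 12 lignin genes was called higher and 4 lower in corolla on day 7 (4.06% and 6.24% of all genes tested), and 2 higher and 2 lower on day 1 (6.11% and 7.80%). With any 1 of the day 1 libraries left out, the day 1 numbers were 1 higher and 1 lower. On day 7 none was higher whichever library was left out, and 1 (without petal day 7 repeat 2) to 5 (without petal day 7 repeat 1) were lower, with 2 in each of the other fits. Their median difference between tissues was -0.38 on day 7 and 0.09 on day 1, beside -0.08 on both days over all genes tested. The laccase 17 gene (c86790.graph_c0), of lignin polymerisation, was listed at 0.58 and 0 FPKM in corolla on day 7 and at 0 in both petal libraries of day 7, against 4.29 and 3.05 FPKM in corolla and 4.03 and 2.99 FPKM in petal on day 1.

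In the flavonoid branch, 6 of the 10 genes other than CHI3 fell and 4 rose in corolla by day 7 (15.0% and 6.52% of all genes tested), and 5 fell and 1 rose in petal (6.05% and 4.12%), with median log2(FPKM + 1) differences of -1.34 and -0.72. A gene with a flavonol synthase of narcissus in Nr and a flavonol synthase/flavanone 3-hydroxylase in Swiss-Prot as its hits (c97862.graph_c0), steps on the way to flavonols, fell to 177 ± 8.58 FPKM in corolla on day 7, against 519 ± 44.99 FPKM on day 1, and to 170 ± 43.9 against 334 ± 26.3 FPKM in petal. Gene c100255.graph_c0, described as flavonol synthase/flavanone 3-hydroxylase-like in Nr and as a codeine demethylase in Swiss-Prot, rose in corolla to 66.3 ± 9.16 FPKM, against 9.87 ± 2.26 FPKM. The highest level of the list was that of c109499.graph_c1, 1 of 5 glycosyltransferases, which attach sugars. It stood at 1085 ± 38.8 FPKM in corolla and 1765 ± 147 FPKM in petal on day 1. On day 7 it had fallen to 225 ± 25.5 FPKM in corolla and 465 ± 88.1 FPKM in petal.

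Of the flavonoid list none was called higher and 5 lower in corolla on day 7 (4.06% and 6.24% of all genes tested), and on day 1 CHI3 was the 1 gene called higher, where 5 others were lower (6.11% and 7.80%). Whichever library was left out, fewer of the list were called lower on day 7 than with all libraries, and the fewest without corolla or petal day 7 repeat 2. On day 1 the fewest were called lower without corolla day 1 repeat 1 or petal day 1 repeat 2. Without either day 7 petal library, c97862.graph_c0 joined CHI3 as higher on day 1. The 5 lower on day 1 included c100255.graph_c0, at 9.87 ± 2.26 FPKM in corolla and 48.2 ± 2.40 FPKM in petal (difference -2.19 ± 0.18 SE, limma adjusted p = 0.000169). They also included 3 glycosyltransferases, such as c108893.graph_c0, at 14.3 ± 2.50 FPKM in corolla and 43.5 ± 1.10 FPKM in petal (-1.55 ± 0.19 SE, limma adjusted p = 0.00125). The flavonol synthase hit c97862.graph_c0 did not pass on day 1 (0.63 ± 0.18 SE, limma adjusted p = 0.0521). The median difference of the list between tissues was -0.66 on day 7 and -0.43 on day 1.

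At the entry of the pathway, 4 genes fell and 3 rose of 8 in corolla (15.0% and 6.52% of all genes tested), and 4 fell and 4 rose in petal (6.05% and 4.12%), with median log2(FPKM + 1) differences of -0.16 and -0.13. The 3 ammonia-lyase genes fell in both tissues, while ligases or ligase-like genes went both ways. The ligase or ligase-like gene c106120.graph_c0 fell in corolla (log2(FPKM + 1) difference -2.70) and in petal (-2.11). The risers were other ligases or ligase-like genes such as c106335.graph_c1. Between tissues 4 of 8 were higher and 1 lower in corolla on day 7 (4.06% and 6.24% of all genes tested), and 1 was higher and none lower on day 1 (6.11% and 7.80%), with medians of 0.75 and 0.56. On day 7 the number higher was 2 without corolla or petal day 7 repeat 1 and 1 without corolla day 7 repeat 2. On day 1 the 1 call was lost when any corolla library or any day 1 library was left out, and 2 were called when either day 7 petal library was. The ammonia-lyase c103612.graph_c0 was at 12.6 ± 0.0849 FPKM in corolla and 42.6 ± 10.98 FPKM in petal on day 7 (difference -1.65 ± 0.18 SE, limma adjusted p = 0.00123). The ammonia-lyase c93919.graph_c0 differed the other way, at 18.0 ± 2.85 FPKM in corolla and 1.84 ± 0.417 FPKM in petal (2.74 ± 0.23 SE, limma adjusted p = 0.000348).

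**Figure D4:**
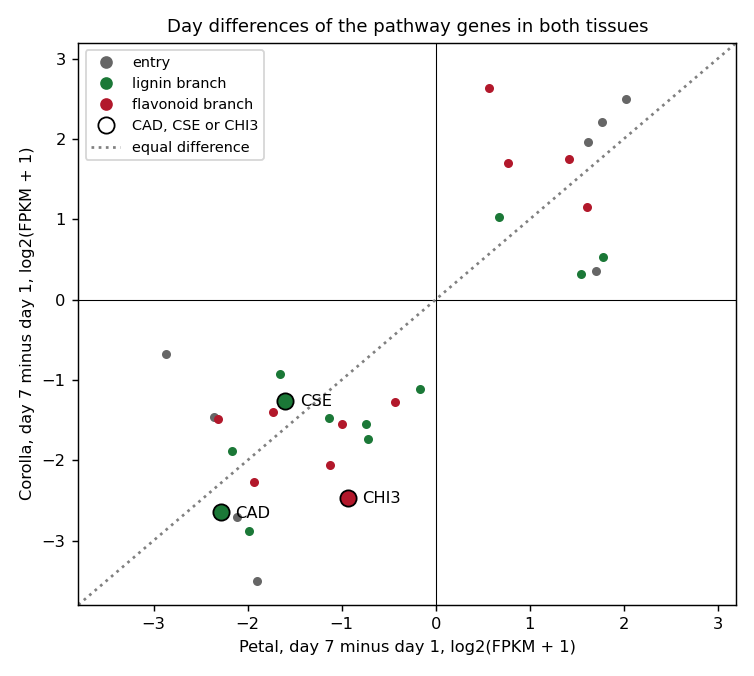
Day 7 minus day 1 as log2(FPKM + 1) in corolla (vertical axis) against petal (horizontal axis) for the genes of the 3 lists; large outlined points are CAD, CSE and CHI3, and the dotted line marks equal differences. CHI3 lies below the line, at -2.47 in corolla and -0.93 in petal, while CAD (-2.65 and -2.28) and CSE (-1.26 and -1.60) lie near it.

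The described genes whose levels over the 8 libraries were most like those of each enzyme were sought among 1445 others with a mean of at least 5 FPKM, by Pearson's r of log2(FPKM + 1). The libraries share tissue, day and scaling, and described genes were all called by the authors between the days in corolla or petal. Of these genes 13.2% reached r = 0.95 with CAD, 8.03% with CSE and 7.82% with CHI3, so a high r is common here. Between the 3 enzymes r was 0.92 for CAD and CSE, 0.86 for CAD and CHI3, and 0.61 for CSE and CHI3.

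Most like CAD were cystathionine gamma-synthase 1 of methionine synthesis (c105976.graph_c0, r = 0.997), UDP-glucose 6-dehydrogenase 4, which makes wall sugar precursors (c106386.graph_c0, 0.996), the probable methyltransferase PMT11 (c87139.graph_c0, 0.996), phospholipase A2-alpha (c102457.graph_c1, 0.995) and the wall-loosening expansin-A1 (c93401.graph_c0, 0.994). Most like CSE were MAP kinase kinase 3 (c104303.graph_c0, 0.997), a mannan-cleaving mannosidase (c83212.graph_c0, 0.994), a cellulose synthase catalytic subunit 5 (c102200.graph_c0, 0.993), endoglucanase 19 (c105014.graph_c0, 0.992) and an aspartic protease (c98782.graph_c0, 0.991). Most like CHI3 were photosystem I subunit V (c87069.graph_c0, 0.993), a chloroplast protein of unknown function (c91106.graph_c0, 0.993), plastid-lipid-associated protein 6 (c92640.graph_c0, 0.988), the chloroplast inner membrane protein PPF-1 (c99425.graph_c0, 0.988) and an uncharacterised protein (c95816.graph_c0, 0.987). Endoglucanase 19, which cuts cellulose, had 1.70 and 2.31 FPKM in corolla on day 7, against 97.23 and 59.22 FPKM on day 1. The photosystem subunit had 1.82 and 1.11 FPKM in corolla on day 7, against 35.96 and 34.0 FPKM on day 1, and 5.35 and 5.62 FPKM in petal on day 1.

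Markers of other tissues moved with some of these results. On day 7 the green tissue genes summed to 1279 to 1511 FPKM in corolla and 586 to 609 FPKM in petal, with 13 of 31 tested higher and 2 lower in corolla by limma, while CHI3 did not pass. By day 7 all 32 had fallen in corolla, and 14 of 25 tested in petal, where 15.0% and 6.05% of all genes tested fell. Each of the 32 was described through the authors' day call in corolla, so the fall there is not independent of the list. The 3 vessel and fibre wall genes, laccase 17 among them, summed to 53.4 to 67.1 FPKM in corolla on day 7 and 25.0 to 46.2 on day 1. In petal they summed to 23.1 to 28.9 on day 7 and 86.0 to 107 on day 1. Against petal, 1 of the 3 was higher and none lower in corolla on day 7, and 2 lower and none higher on day 1. In corolla c95103.graph_c0 held most of the sum, with means of 52.1 FPKM on day 7 and 30.3 on day 1. There c93723.graph_c0 was also higher on day 7 (7.83 against 1.6 FPKM), whereas laccase 17 was lower (0.29 against 3.67 FPKM). The 8 pollen and anther genes summed to 144 to 241 FPKM in corolla on day 7, 130 to 186 in corolla on day 1, 51.4 to 57.0 in petal on day 7 and 91.7 to 113 in petal on day 1, with 4 higher in corolla on day 7 and 5 higher and 3 lower on day 1. Of all genes tested, 4.06% were higher and 6.24% lower in corolla on day 7, and 6.11% and 7.80% on day 1. The markers were described only through the authors' day calls, so these lists were not chosen independently of the same libraries. No marker was listed at 0 in all 8 libraries. The list meant for floral organ identity held only 2 MADS-box genes, an APETALA3-like gene (c95429.graph_c0) and an AGL8 homolog (c96931.graph_c0). Neither differed between the tissues by limma's FDR of 0.05 on either day, so the corolla and petal labels could not be checked from markers. The part of these tissues in the results was not tested. Relative depth ran from 0.678 (petal on day 7, repeat 2) to 1.03, and between repeats r was 0.956 to 0.977 over the tested genes.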

How the data were processed

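Levels of 3 genes were analysed in 8 poly-A RNA libraries, in 4 groups of 2. Per the labels, reads were assembled de novo; Bowtie and RSEM are named in the submitters' processing notes, without version. The authors deposited, per tissue, FPKM of all genes rounded to 2 decimals, with an adjusted p-value and a log2 fold change of day 7 over day 1 from a tool not given in the sources used here. Read counts were deposited only for the 1707 corolla and 1053 petal genes the authors called (FDR under 0.01 and at least a 2-fold change, from the values), so total depth is unknown, no count test was run over all genes, and depth was set from counts over FPKM.

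Here limma 3.58.1 (R 4.3.3, trend) was run on log2(FPKM + 1) with Benjamini-Hochberg adjustment at FDR 0.05 over all genes with at least 1 FPKM in 2 libraries: 8 libraries and genes of both tables for corolla against petal, the 4 of a tissue for day 7 against day 1. This scale understates changes of weakly expressed genes. TMM factors came from edgeR 4.0.16. The code was tested on simulated data. Python 3.11.15, pandas 2.3.3, numpy 2.4.6 and matplotlib 3.10.9 made tables and plots.

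The genes, lists and tests were chosen with earlier results of these data known. Named are the 3 genes, genes of the 3 pathway lists and, for each enzyme, the 5 described genes with the highest r. Alternatives changed the pseudocount, filter, scaling, libraries in the fit and repeat block. No genome or sequence was used here.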

Additional observations from a re-analysis of the deposited data

Results flagged for a closer look

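In 3 of the 31 genes of the pathway lists every corolla library was below every petal library on day 7 and above every petal library on day 1. This pattern was also seen in 595 (2.25%) of the 26460 genes tested, and its opposite in 597 (2.26%). The difference between the days was not tested, and none of the 3 genes passed between the tissues on day 1 (limma adjusted p = 0.599 for c86519.graph_c0, 0.0569 for c100198.graph_c0 and 0.521 for c104216.graph_c0). For hydroxycinnamoyltransferase c86519.graph_c0, at the entry to lignin, the difference of corolla from petal was -0.61 on day 7 and 0.20 on day 1 (log2(FPKM + 1)). Its levels were 176 and 189 FPKM in corolla and 223 and 349 FPKM in petal on day 7, and 532 and 538 FPKM in corolla and 489 and 445 FPKM in petal on day 1. For 4-coumarate-CoA ligase 1 (c100198.graph_c0) the differences were -0.51 on day 7 and 0.84 on day 1. For the weakly expressed c104216.graph_c0, with the CSE description, they were -0.95 on day 7 and 0.29 on day 1.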

How the results depend on the processing

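The call of CHI3 (higher in corolla on day 1) and the absence of a call for CAD on either day held in every alternative run tallied for single genes. Fits with a library left out and the filter reapplied were not among these runs. The day 1 call of CSE was lost when a day 1 library was left out, as given above, and held otherwise, while on day 7 CSE passed without petal day 7 repeat 1. With single libraries left out, the corolla minus petal difference lay at -0.42 to -0.06 on day 7 and -0.13 to 0.38 on day 1 for CAD, at -0.48 to -0.24 and -0.74 to -0.66 for CSE, and at -0.15 to 0.18 and 1.46 to 1.63 for CHI3. The day differences ran in corolla from -2.76 to -2.54 for CAD, from -1.33 to -1.19 for CSE and from -2.51 to -2.42 for CHI3, and in petal from -2.54 to -2.03, from -1.72 to -1.48 and from -1.10 to -0.77. Depth-adjusted counts, chosen after seeing the data, gave -2.43 in corolla and -1.94 in petal for CAD. For CHI3 in corolla, TMM scaling gave -2.40 and median-of-ratios scaling -2.42.

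Genes called numbered 1176 on day 7 and 5556 on day 1 when only the 4 libraries of that day were fitted, against 2726 and 3680. Without a filter on low FPKM they numbered 2452 for the day difference in corolla and 452 in petal, against 4820 and 2384, and 3921 in petal with all 8 libraries fitted. Leaving out 1 library gave 1172 to 2634 on day 7, 1654 to 4511 on day 1, 0 to 2932 for the day difference in corolla and 0 to 2164 in petal. The lowest came without corolla day 7 repeat 2 on day 7 and petal day 1 repeat 1 on day 1, and the 0 without a day 1 library (in petal also without day 7 repeat 1). With the filter also reapplied, chosen after seeing the data, the ranges were 1181 to 2620, 1654 to 4547, 921 to 5050 and 251 to 4662. The causes were not tested.

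Uncalled differences of list genes changed sign as follows. Between tissues on day 1, c103612.graph_c0 gave 0.033 by TMM and 0.036 by median-of-ratios scaling and -0.18 to 0.086 with a library left out, c86790.graph_c0 -0.15 to 0.24 and c98606.graph_c1 -0.34 to 0.18. On day 7, c102034.graph_c0 gave 0.0052 by median-of-ratios scaling and -0.26 to 0.066, c100255.graph_c0 -0.27 to 0.013, c106120.graph_c0 -0.68 to 0.47, c84445.graph_c0 -0.87 to 0.45, c89143.graph_c0 -0.90 to 0.11 and c97862.graph_c0 -0.18 to 0.35. For the day difference in petal, c89143.graph_c0 gave -0.68 to 0.34. Of the other values for list genes and lists under other settings, 946 kept direction and call, 56 lost the call, 25 gained it and 40 counts moved by over 1.5 times. With a library left out, 530 kept both, 188 lost the call, 10 gained it, 15 changed sign and 73 counts moved.

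Same-numbered libraries of corolla and petal deviated together within a day (r = 0.293 on day 7 and 0.139 on day 1 over 26460 genes, and 0.594 and 0.394 over the 13236 that averaged 5 FPKM or more) but not across days (-0.0052 to 0.0008), and with 2 pairs a comparison the numbers were not taken as a pairing. With the number as a block, genes called numbered 2830 on day 7, 3584 on day 1, 3403 in corolla and 2288 in petal. With a block within each day, chosen after seeing the data, they numbered 3365 on day 7 and 3934 on day 1. In both, no call of the 3 enzymes between tissues changed (CSE on day 1 adjusted p = 0.0124). The 2 libraries a group limit the precision, and counts cover only called genes.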
